A study of Brassica napus with 3 samples.

Results

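The regions described here are the LEAFY (LFY) binding peaks on rapeseed chromosomes A07 and C06. They were taken from the deposited peak list by their sequence name alone and number 5781 of the 62949 peaks in the list, 2138 on A07 and 3643 on C06. The list came from DNA affinity purification sequencing (DAP-seq) of BnaC3.LFY, the LEAFY copy of chromosome C03, in Brassica napus. The series title calls the assay ChIP-Seq, while the design and the sample titles give DAP, which is followed here. The labels name 2 DAP libraries and 1 input library of genomic DNA, and give the tissue as shoot apices in one field and as inflorescence in another. All positions are on the Westar v0 assembly and are counted from 1. The authors deposited 1 list for the series, so no value below has an error between libraries. Intervals given are 95% intervals that cover counting error only, and peaks on a chromosome are not replicates of a condition.

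LEAFY is a master regulator of flower development, found only in plants, that turns new lateral meristems into flowers rather than shoots. In Arabidopsis it acts by binding DNA near floral homeotic genes such as APETALA1 and AGAMOUS. In DAP-seq the protein meets naked, fragmented genomic DNA, so the peaks record where the DNA itself is bound, without chromatin or partner proteins of the cell. Rapeseed joins an A genome from Brassica rapa and a C genome from Brassica oleracea. A07 and C06 are largely homoeologous, meaning that long blocks of their genes descend from the same ancestral chromosome. Neither gene positions nor DNA sequence of Westar v0 were used here, so peaks are named by position and no homoeologous block was aligned. Relative position, the percentage of the span from the first base to the end of the last peak, is therefore only a coarse guide to which parts correspond.

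Both chromosomes carried LFY peaks at nearly the same density although C06 was much longer. A07 held 66.2 peaks per Mb over 32.3 Mb (Poisson interval 63.5 to 69.1), and C06 held 69.0 per Mb over 52.8 Mb (66.8 to 71.3). The difference, A07 minus C06, was -2.77 per Mb, with an interval of -6.36 to 0.857 that includes 0. Among peaks with a -log10 q of at least 10 it was -3.65 per Mb (-6.18 to -1.09). The other 9 A chromosomes averaged 64.6 ± 7.79 peaks per Mb (SD) and the other 8 C chromosomes 66.8 ± 2.75, so both lay within 1 SD of their own subgenome. Peaks covered 2.58% of the A07 span and 2.74% of the C06 span. No neighbouring peaks overlapped on either chromosome. Deposited values with the digits of an average were seen in 1406 peaks of A07 (65.8%) and 2406 of C06 (66.0%), against 66.6% of all chromosome peaks.

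The direction of this small difference turned, within counting error, once the long peak-free intervals were set aside. An interval was counted from 200 kb between the edges of neighbouring peaks. A07 had 5 of these and C06 had 3, and C06 also lacked peaks from its first base to the first peak at 372883. In the remaining length A07 carried 74.3 peaks per Mb and C06 72.7 per Mb, a difference of 1.53 per Mb (-2.40 to 5.51). Among the A chromosomes A07 ranked 5 of 10 by this measure, while C06 ranked 2 of 9 among the C chromosomes, behind C03 at 73.5 per Mb. Unresolved bases of the assembly, which cannot hold a peak, were not located here.

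**Figure D1:**
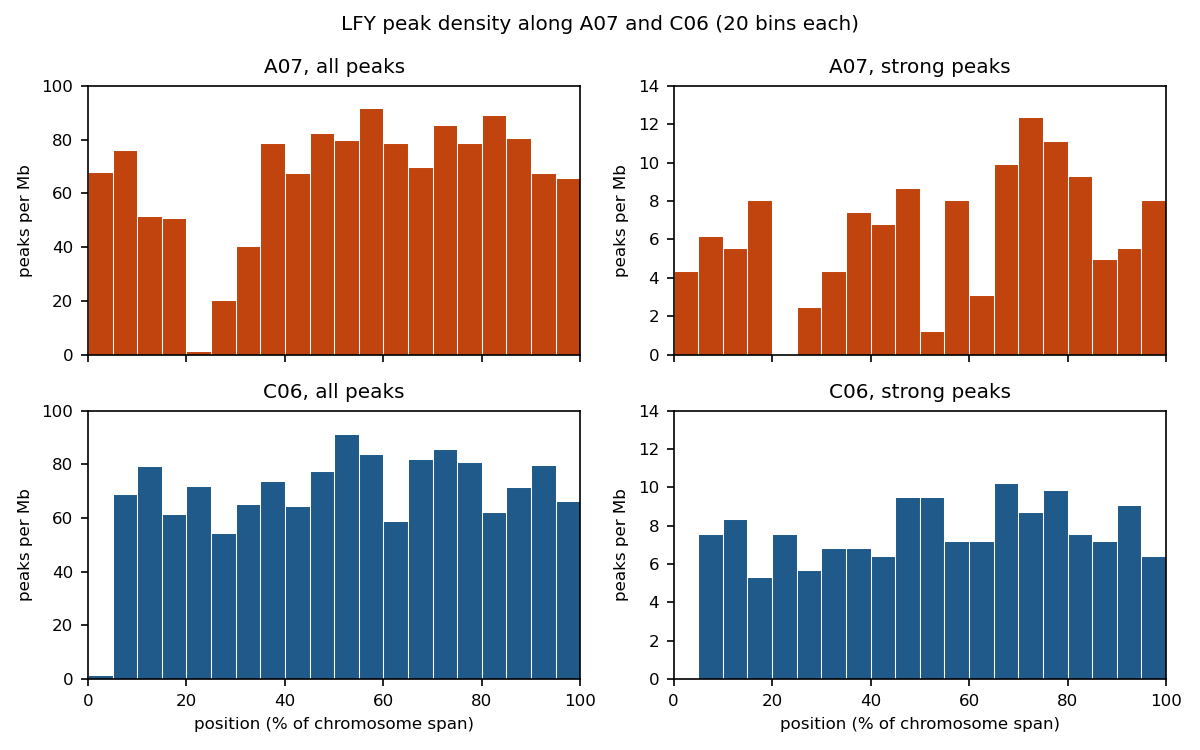
Peaks per Mb (y) in 20 bins of relative position (x, percent of chromosome span) for A07 (top) and C06 (bottom), with all peaks on the left and strong peaks (the 10% of highest fold) on the right. The lowest bin of A07 lies at 20 to 25% of the span with 1.24 peaks per Mb, and that of C06 at 0 to 5% with 1.52 peaks per Mb.

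The peak-poor DNA lay in the interior of A07 and at the very start of C06. On A07 all 5 intervals fell between 4370249 and 10025539, which is 13.5 to 31.1% of the span. The longest ran for 1.25 Mb from 7605457 to 8859312. It was followed in length by 1.03 Mb from 6398133 to 7426178 and by 0.585 Mb from 9440557 to 10025539. On C06 all 3 intervals fell before 2716268, or 5.15% of the span. They measured 1.23 Mb from 1482823 to 2716268, 0.698 Mb from 784458 to 1482358 and 0.406 Mb from 373270 to 779438. The A07 interval just above the limit measured 218 kb and the next one 178 kb. On C06 the next interval measured 195 kb and lay near the other end, from 51735937 to 51930541. The longest interval was thus of almost equal length on both chromosomes, while its relative position differed.

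The A07 stretch from 4370249 to 10025539 was not empty, and the peaks in it were unevenly grouped. It held 123 peaks in 5.66 Mb, or 21.7 per Mb (18.1 to 25.95), against 75.7 per Mb (72.4 to 79.1) in the rest of A07. Of these, 88 lay in 1 block from 4778744 to 6398132 at 54.3 per Mb. Another 2 lay between the intervals of 1.03 and 1.25 Mb, and 3 lay in a short block that starts at 9323614. The remaining 30 were packed into 246 kb from 8859313 to 9105142, at 122 per Mb, between the longest interval and that of 218 kb. Such crowding was not confined to this block. The block peak that starts at 9018456 had 27 other peaks within 100 kb, and a peak outside the stretch that starts at 14671690 had 28. The first 2716268 bases of C06 held 4 peaks with a median fold of 6.67, none of them strong. The rest of C06 carried 72.7 peaks per Mb (70.3 to 75.1).

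The crowded block on A07 held broad peaks. A width of at least 800 bp was reached by 3.18% of peaks over all 19 chromosomes, by 47 of the 2138 peaks of A07 (2.20%) and by 91 of the 3643 peaks of C06 (2.498%). In the block from 8859313 to 9105142 it was reached by 11 of 30 peaks, and the median width there was 566 bp. The 2 widest peaks of A07 both lay in it, 1927 bp wide from 9103216 to 9105142 with a fold of 16.2, and 1802 bp wide from 9076632 to 9078433 with a fold of 15.98. Their nearest neighbours were 313 and 220 bp away. Both carried values with the digits of an average, as did every other peak of at least 800 bp in the block. Such digits were seen in 65.8% of all A07 peaks, and the 2 widest peaks of C06 carried them too. Whether these widths join several entries of the peak caller was not tested. Within the whole A07 stretch 13.01% of peaks were at least 800 bp wide (Wilson interval 8.17 to 20.1%), against 1.54% (1.09 to 2.18%) in the rest of A07. Of the 16 peaks of this width in the stretch, 11 were those of the crowded block and 5 lay in the block of 88 peaks. The crowded block also had a high median fold, 10.3 against 5.87 over all of A07. It was singled out after its values had been seen, so these shares describe it and are not a test. The widest peaks of C06 lay apart from each other. The first, 1840 bp wide from 34342183 to 34344022, had a fold of 6.52, with neighbours 7093 and 67660 bp away. The second, 1544 bp wide from 31644617 to 31646160, had a fold of 42.9 and a neighbour 3302 bp away. It had 18 other peaks within 100 kb, as had the second widest of A07.

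Over all peaks the widths of both chromosomes were close. The median peak was 358 bp wide on A07 (351 to 366) and 364 bp on C06 (358 to 370), a difference of -6 bp (-15.2 to 4). A 10th to 90th percentile range of 252 to 546 bp on A07 stood beside 256 to 559 bp on C06. Width grew with fold on both: peaks with a fold below 4 had a median width of 277 bp on A07 and 296 bp on C06, and those with a fold of 30 or more had 604 bp on A07 and 578 bp on C06. Across peaks, Spearman's rho of width with fold was 0.669 on A07 (2138 peaks) and 0.659 on C06 (3643 peaks). It is given as a description, since both values come from the same libraries. Peaks with the digits of an average were not set apart for it.

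**Figure D2:**
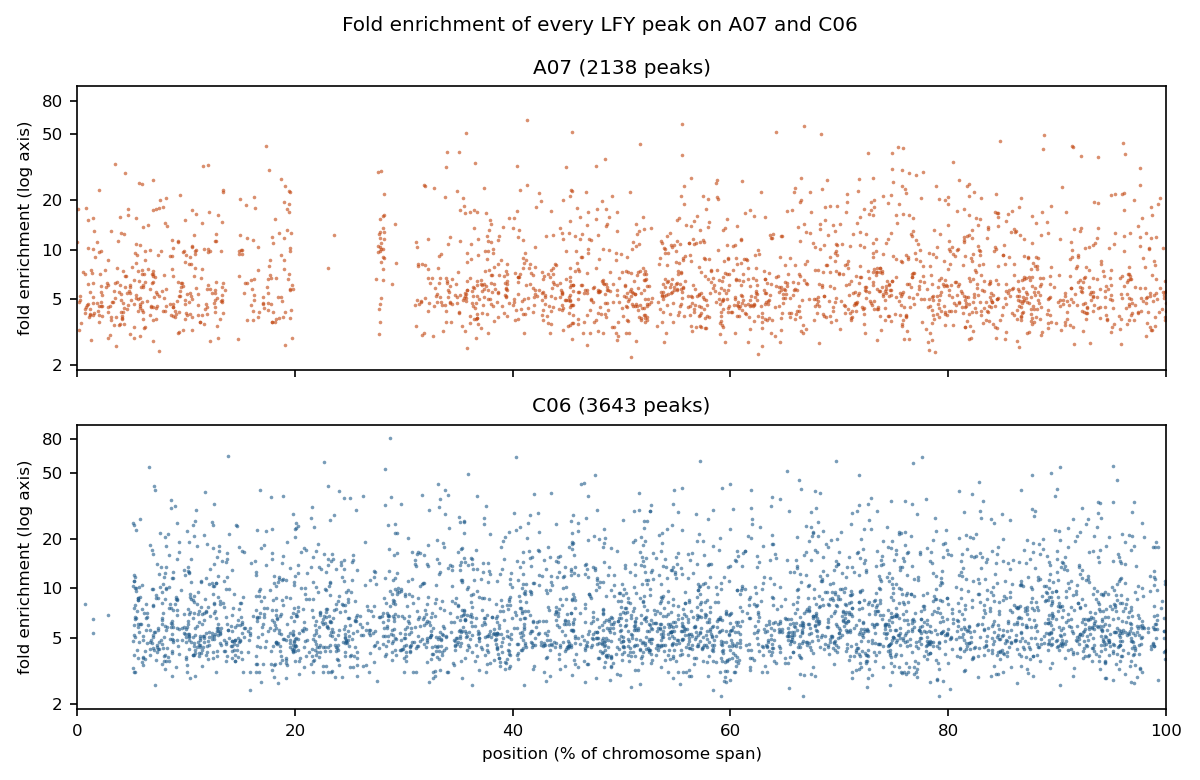
Fold enrichment of each peak (y, log axis) against its relative position (x, percent of chromosome span), A07 above and C06 below, with 1 point per peak. The strongest A07 peak stands at 41.3% of the span with a fold of 60.9 and the strongest C06 peak at 28.7% with a fold of 81.8; the empty columns are the peak-free intervals.

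C06 carried the strongest LFY peak of the whole list, and its highest folds exceeded those of A07. It also held more peaks, 3643 against 2138, and a larger set tends to reach a higher maximum. The 99th percentile of fold, which does not grow with the number of peaks, was close, at 37.8 on A07 and 39.1 on C06. The fold is the authors' own value for each peak, a ratio of DAP signal to local background. On A07 the 5 strongest peaks had folds between 51.4 and 60.9, and on C06 between 59.4 and 81.8. The strongest A07 peak ranked 46 among all chromosome peaks, and 4 peaks of C06 exceeded it. By -log10 q the tops were closer, at 324 on A07 and 331 on C06. A fold of 50 or more occurred in 6 peaks of A07 (0.281%, 0.129 to 0.611%) and 14 peaks of C06 (0.384%, 0.229 to 0.644%), against 0.254% over all chromosomes. At 30 or more the counts were 39 peaks on A07 (1.82%) and 89 on C06 (2.44%), against 2.19% over all chromosomes. At 20 or more they were 123 on A07 (5.75%) and 248 on C06 (6.81%), against 6.28%.

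On A07 the strongest peak spanned 13327588 to 13328307. The second, with a fold of 57.7, lay from 17920808 to 17921620, and the third, with a fold of 55.8, from 21540784 to 21541489. The fourth and the fifth were almost equal, at 51.5 from 20703624 to 20704178 and at 51.4 from 14671690 to 14672290. All 5 lay between 41.3 and 66.7% of the span, beyond the peak-poor stretch. The strongest A07 peak had a strong neighbour of 24.5-fold only 5327 bp away, and the fifth had one of 22.6-fold at 4.52 kb. The fourth stood farthest from its kind, with the nearest strong peak 346 kb away.

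On C06 the strongest peak ran from 15141547 to 15142180 and exceeded the second by 18.6 in fold, whereas on A07 the first exceeded the second by 3.22. It was 634 bp wide, a width below that of the strongest A07 peak, at 720 bp. Its neighbours were not strong, 6.80-fold at 16312 bp on the left and 9.65-fold at 6107 bp on the right, and the nearest strong peak, of 36.0-fold, was 46.1 kb away. The window of 100 kb to each side of its centre held 16 other peaks, against 13 around the strongest A07 peak. The second C06 peak, of 63.1-fold, lay from 7286475 to 7287156, and the third, of 62.8-fold, from 21296048 to 21296654. A peak of 62.1-fold lay from 40982967 to 40983544 and one of 59.4-fold from 36787001 to 36787522. These 5 were spread from 13.8 to 77.6% of the span.

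Peaks of middling strength differed little. The median fold was 5.87 on A07 (5.71 to 6.03) and 6.11 on C06 (5.996 to 6.27), a difference of -0.24 (-0.46 to -0.04). With only peaks of a -log10 q of at least 10, a limit that itself follows fold, it was 0.035 (-0.438 to 0.512), with no sign determined. Such peaks made up 48.2% of A07 and 51.6% of C06, against 50.7% of all chromosome peaks. Below a fold of 4 A07 was the denser, with 9.26 peaks per Mb against 8.20 per Mb on C06, a ratio of 1.13 (0.971 to 1.31). Between 4 and 6 the chromosomes were equal within counting error, at 25.1 per Mb on A07 and 25.2 per Mb on C06, a ratio of 0.993 (0.909 to 1.08). From a fold of 6 upwards every class was sparser on A07, with ratios between 0.717 and 0.939, and in each class the interval of the ratio included 1. The lowest ratio was that of a fold of 30 or more, with 1.21 per Mb on A07 and 1.69 per Mb on C06 (ratio interval 0.479 to 1.06).

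**Figure D3:**
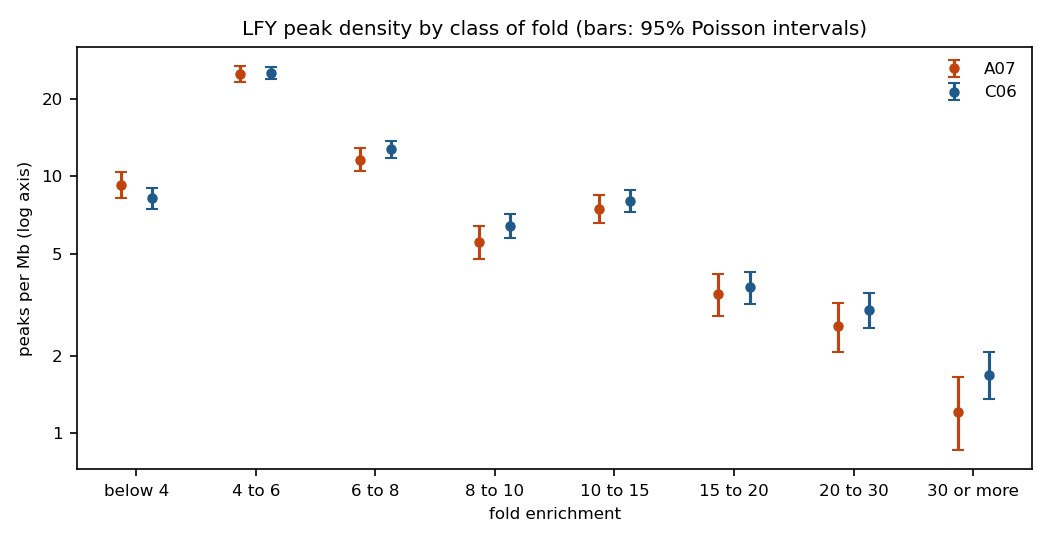
Peaks per Mb (y, log axis) in 8 classes of fold enrichment (x) on A07 and C06, with bars for the 95% Poisson interval. A07 lies above C06 in the lowest class, level with it between 4 and 6, and below it in each class from 6 upwards, with overlapping intervals.

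Strong peaks were those among the 10% of highest fold over all chromosomes, from 16.1-fold upwards. The weakest strong peak had a fold of 16.149 on A07 and 16.154 on C06, and the strongest peak just outside had 16.085 on A07 and 16.075 on C06. A07 held 206 strong peaks (9.64%, 8.46 to 11.0%) and C06 held 388 (10.7%, 9.69 to 11.7%). Per Mb this was 6.38 on A07 (5.54 to 7.32) and 7.35 on C06 (6.64 to 8.12). The difference was -0.968 per Mb, and its interval of -2.11 to 0.207 includes 0.

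By value, each chromosome stood at the edge of its own subgenome in its share of strong peaks, on the side facing the other. The share of strong peaks on A07, 9.64%, ranked 1 of 10 A chromosomes, above a range of 7.24 to 8.91% on the other 9. The share on C06, 10.7%, ranked 9 of 9 C chromosomes, below a range of 10.9 to 11.5% on the other 8. The counting interval of C06 (9.69 to 11.7%) covered that whole range, and that of A07 (8.46 to 11.0%) included the 8.91% of A01. By strong peaks per Mb A07 again ranked 1 of 10, at 6.38 against 4.56 to 6.10 on the other A chromosomes. C06, at 7.35, ranked 6 of 9, within the range of the other C chromosomes of 6.97 to 8.01. Other measures of strength gave other places. Median fold ranked 7 of 10 on A07 and 8 of 9 on C06, and highest fold 8 of 10 on A07 and 1 of 9 on C06. Neither chromosome was far enough from the rest of its subgenome to pass Dixon's test for an outlying value in any of these measures. The difference in strong share within the pair, A07 minus C06, was -1.02 percentage points (-2.59 to 0.620).

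**Figure D4:**
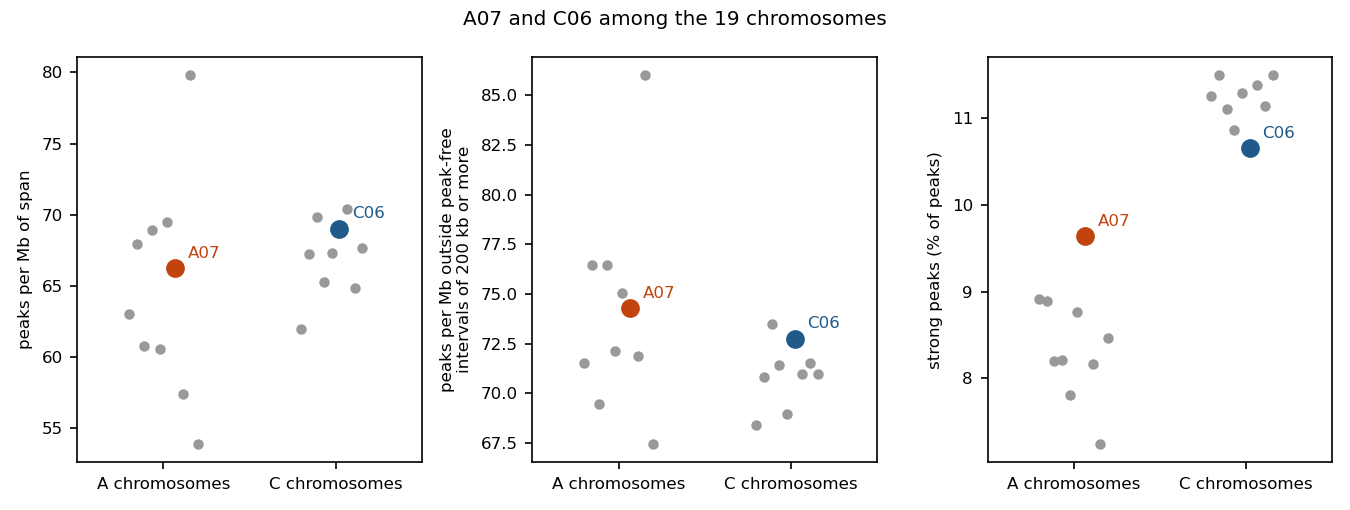
Values of the 10 A chromosomes and 9 C chromosomes (1 point each) for peaks per Mb of span, peaks per Mb outside peak-free intervals of 200 kb or more, and the share of strong peaks (y axes, none of which starts at 0). A07 has the highest strong share of the A chromosomes, 9.64%, and C06 the lowest of the C chromosomes, 10.7%.

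Along the chromosomes, ends and middle were nearly level on A07, while the middle of C06 was the denser part. Taking the outer 20% on each side as ends and the central 60% as middle, peaks were 1.06 times as dense at the ends as in the middle on A07 (0.975 to 1.16) and 0.827 times as dense on C06 (0.772 to 0.886). The other A chromosomes ranged from 0.606 on A03 to 1.48 on A10, and the other C chromosomes from 0.930 on C07 to 1.27 on C04, so C06 was the lowest of the C chromosomes. The interval of A07 includes 1, and that of C06 does not. With the stretch cut out of each chromosome, the ratio was 0.880 on A07 (0.803 to 0.964) and 0.963 on C06 (0.901 to 1.03). The chromosomes then changed places, with the denser middle on A07 and an interval that includes 1 on C06. With ends of 33.3% of the span on each side the ratio on A07 was 0.773.

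In 5 equal parts of the span, A07 held 61.7, 35.2, 80.4, 78.2 and 75.7 peaks per Mb from its first to its last part. C06 held 52.8, 66.4, 79.3, 76.7 and 69.9 peaks per Mb. The parts from 40 to 80% of the span were thus the densest on both chromosomes, and their values differed between A07 and C06 by less than the counting intervals. The part from 20 to 40% differed most, with 35.2 peaks per Mb on A07 (30.7 to 40.05) and 66.4 per Mb on C06 (61.6 to 71.5). Strong peaks were densest from 60 to 80% on both, at 9.14 per Mb on A07 (6.96 to 11.8) and 8.998 per Mb on C06 (7.28 to 11.0). These intervals overlapped those of the parts on either side. From 40 to 60% the values were 6.20 on A07 (4.43 to 8.44) and 8.15 on C06 (6.52 to 10.1). In the last part they were 6.97 on A07 (5.08 to 9.33) and 7.58 on C06 (6.01 to 9.43). The median fold moved little between the parts, from 5.64 to 6.24 on A07 and from 5.99 to 6.22 on C06.

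At the scale of 1 Mb both the typical bin and the extremes were similar. The median bin held 73 peaks on A07 and 69 peaks on C06. The densest bin of A07 started at 23 Mb and held 91 peaks, and that of C06 started at 27 Mb and held 100 peaks. The sparsest bin of A07 started at 7 Mb with 2 peaks, and that of C06 at 1 Mb with 1 peak. In windows of 100 kb neither chromosome exceeded 19 peaks. The variance of these window counts divided by their mean was 2.004 on A07, second lowest of the 10 A chromosomes, and 1.83 on C06.

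The share of strong peaks varied far more along A07 than along C06. In the bins of relative position with at least 20 peaks, 19 on each chromosome, strong peaks made up 1.55 to 15.9% of the peaks on A07 and 8.60 to 12.5% on C06. Bins were shorter on A07, 1.61 Mb against 2.64 Mb on C06, and mostly held fewer peaks, so counting alone spreads their shares more. The lowest A07 bin, at 50 to 55% of the span, held 2 strong peaks among 129 (Wilson interval 0.426 to 5.48%). The bin at 60 to 65% was also low, with 5 among 127 (1.69 to 8.89%). The highest bin, at 15 to 20% in the peak-poor stretch, held 13 among 82 (15.9%, 9.51 to 25.3%). The bins from 65 to 80% were also high, at 14.2 to 14.5%, with 16, 20 and 18 strong peaks. The variance of the share between bins, relative to that from counting alone, was 1.82 on A07 and 0.294 on C06. On C06 the share thus varied less than counting alone would give. The value of A07 was second among the A chromosomes to A09 (3.82), and that of C06 was the lowest of all 19 chromosomes. In bins of a fixed 2 Mb it was 2.11 on A07 and 0.484 on C06, with the same ranks within each subgenome, but C07 was close to C06 at 0.496.

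**Figure D5:**
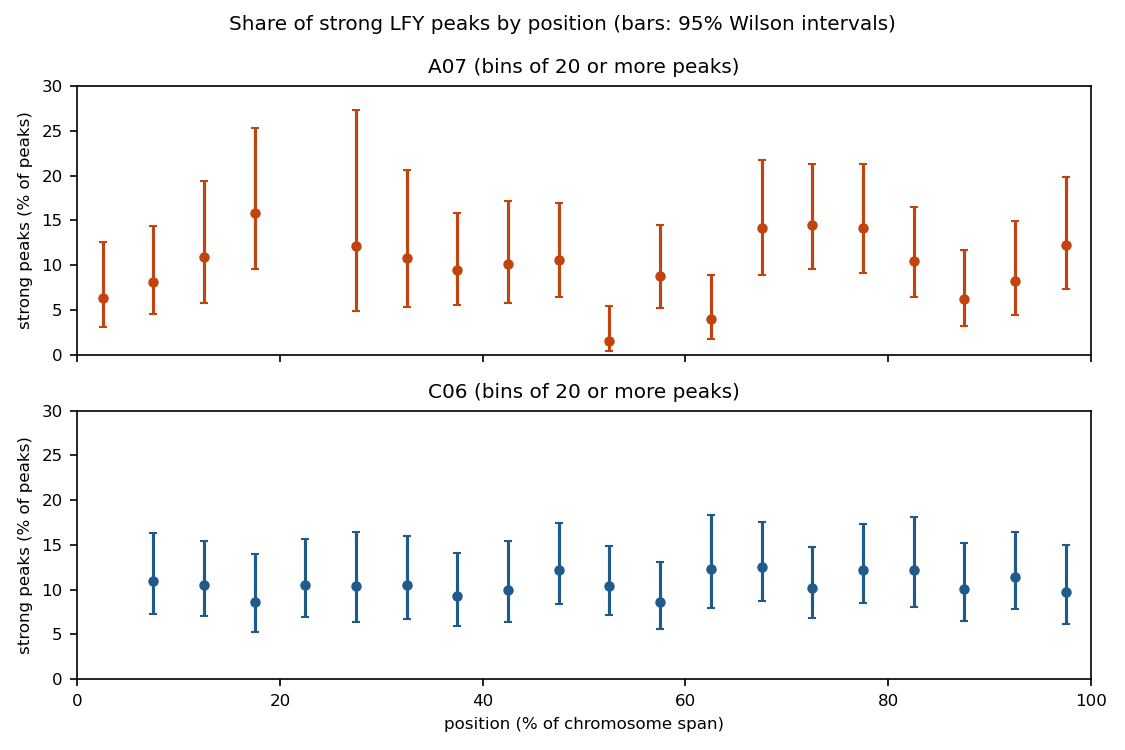
Percentage of peaks that are strong (y) in bins of 5% of the span (x) that hold at least 20 peaks, A07 above and C06 below, with bars for the 95% Wilson interval. A07 ranges from 1.55 to 15.9% with a low bin at 50 to 55% of the span, and C06 stays between 8.60 and 12.5%.

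Spacing was close at the median. Neighbouring peaks were 8412 bp apart at the median on A07 and 8316 bp on C06, and neighbouring strong peaks 86.8 kb on A07 and 85.6 kb on C06. The longest distance between neighbouring strong peaks on A07 was 2.63 Mb, from the end of a peak at 6297912 to 8928431. It held 15 weaker peaks and lay within the peak-poor stretch. The next ran for 1.21 Mb from 16696035 to 17901209 and held 95 weaker peaks. On C06 the longest such distance was 0.947 Mb, from 13959713 to 14906868, with 37 weaker peaks, but its first 2.72 Mb, before the first strong peak, held none either. The lower quartile of the distance between neighbouring strong peaks was 27.3 kb on A07 and 37.6 kb on C06. The closest pair of C06, of 19.6-fold and 36.2-fold, was 164 bp apart at 24745059 to 24746227, and the next, of 18.3-fold and 33.6-fold, 254 bp apart at 40126617 to 40127801. On A07 the closest were members of a single group from 23604991 to 23609207, with folds of 16.2, 19.9 and 18.1 and distances of 2032 and 913 bp. A neighbour within 500 bp was found for 192 peaks of A07 (8.98%, 7.84 to 10.3%) and 276 of C06 (7.58%, 6.76 to 8.48%), against 9.87% of peaks over all chromosomes. The fold of a peak said little about that of the next, with a Spearman's rho of 0.0158 on A07 and 0.0274 on C06.

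The density profiles of A07 and C06 showed at most a weak match, which so few bins cannot establish. Over 20 bins of relative position Pearson's r was 0.189 and Spearman's rho 0.424, given as a description because the bins share the library, the peak caller and their neighbours. With C06 reversed, r was -0.197. For strong peaks alone, r was 0.282. A07 was the denser chromosome in 9 of 20 bins. The bins of greatest difference were those of the peak-poor stretches: at 0 to 5% A07 held 68.2 peaks per Mb and C06 1.52 per Mb, and at 20 to 25% A07 held 1.24 per Mb and C06 72.0 per Mb. Leaving out bins with over 20% of their length in peak-free intervals on either chromosome kept 15 bins, in which r was 0.375 and rho 0.398. In these bins A07 ranged from 50.8 to 91.7 peaks per Mb and C06 from 58.7 to 91.3 per Mb.

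Set beside the other pairings of an A with a C chromosome, the match of A07 with C06 ranked 24 of 90 by r over all bins and 2 of 90 over the bins kept. The 90 values ran from -0.690 to 0.848 over all bins, with a median of 0.00669, and from -0.816 to 0.528 over the bins kept. Over all bins the highest r of A07 was with C08, at 0.848, and over the bins kept it was with C06. The pairs share chromosomes and kept different bins, so these ranks describe the list and test nothing. Both chromosomes held at least 77.7 peaks per Mb in each bin from 45 to 60% and from 70 to 80% of the span. They differed most among the kept bins at 80 to 85%, with 89.2 peaks per Mb on A07 and 62.1 per Mb on C06.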

How the data were processed

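DAP-seq peaks of BnaC3.LFY were analysed from the 1 list the authors deposited for 2 DAP libraries and 1 input library. The submitters' processing notes name fastp, Bowtie2, SAMtools, MACS2 and HOMER without version. The sources used here do not give the parameters or how replicates were combined. The list has 7 columns. The authors deposited for each peak a score, which follows 10 times its -log10 q, a fold (ratio over local background, read from the column order), a -log10 p and a -log10 q (negative logs of the p-value and q-value). Sequencing depth is unknown.

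Peaks on A07 and C06 were selected by sequence name. The members and measures were chosen with earlier results of these data known. Span was the end of the last peak. Densities carry exact Poisson intervals, shares Wilson intervals, medians order-statistic intervals and density ratios exact conditional binomial intervals, at 95%. Differences combine both intervals. These cover counting error only. Without values per library no test between libraries was possible. Named peaks are the 5 strongest and 2 widest, with the 3 longest peak-free intervals and extreme 1 Mb bins, of each chromosome; the crowded A07 block was named after its values were seen. Peaks whose values have a fractional score or more than 6 significant digits carry a sign of averaging over lines of the caller. Python 3.11.15, NumPy 2.4.6, SciPy 1.17.1 and pandas 2.3.3 were used, tested on simulated data.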

Additional observations from a re-analysis of the deposited data

How the results depend on the processing

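The 9 differences, ratios and correlations were recomputed under 43 alternatives, of which 29 kept their sign and stayed within the interval of the main value. For the profile correlation that interval is not one of counting error: it treats the 20 bins as independent points, which they are not. The count of peak-free intervals has no interval. The difference in density (-2.77 per Mb, A07 minus C06) was 3.01 (-1.04 to 7.13) without the stretch of peak-free intervals of each chromosome. Over the length without such intervals it was 1.53 (-2.40 to 5.51). These intervals and that of the main value include 0, so they determine no direction. Both alternatives were chosen after seeing the data, and they remove more peak-free length from A07 in proportion. The difference in median fold (-0.24) was 0.035 with only peaks of a -log10 q of at least 10 (-0.438 to 0.512, no sign determined). As median -log10 q it was -0.705. The ratio of ends to middle on A07 was 1.06, with an interval that includes 1. With peaks of a -log10 q of at least 10 it was 0.978 (0.861 to 1.11), which also includes 1. It fell below 1 beyond counting error with ends of 33.3%, to 0.773 (0.708 to 0.844), and with the stretch taken out, to 0.880 (0.803 to 0.964). On C06 (0.827) it was 0.743 with the outer 10% on each side, 0.892 with ends of 33.3% and 0.963 with the stretch taken out. The profile correlation (0.189) was -0.197 with C06 reversed. A07 had 2 more intervals of 200 kb or more than C06; the difference was 5 with peaks of a -log10 q of at least 10, 1 at 500 kb and -5 at 100 kb, where A07 had 11 and C06 had 16. The values of strong peak density, strong share and median width were lower on A07 under every alternative run. Their intervals included 0, so no direction was determined, except for strong density by the top 10% of -log10 q (-1.18 per Mb, -2.32 to -0.005). A -log10 q of at least 10 could not change strong density, because every strong peak already passed it, yet it counts among the 29. Keeping only peaks with the averaging sign, run for density, strong share, median fold and median width, changed the sign of none of these 4 differences. No paired analysis was possible because the list holds no values per library, and for the same reason no replicate could be left out. Depth per library is unknown, so no limit of detection can be given for the peak-free intervals.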
